A study of Mus musculus with 6 samples.

Results

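The genes for mitochondrial ribosomal proteins were followed through invariant natural killer T (iNKT) cells of mouse liver, spleen and lymph node. They were taken by symbol, as every gene whose name starts with Mrps or Mrpl followed by a digit, which gave 77 of the 27998 genes in the count tables. By structure, 50 of the 77 encode proteins of the large subunit and 26 proteins of the small subunit, while Mrps36 kept its symbol although its protein is now placed in a Krebs cycle enzyme complex. Of the subunit proteins, 46 have a bacterial homologue and 30 are specific to mitochondria. All 77 genes are annotated as protein coding and lie on 17 chromosomes.

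The series holds 6 single-cell libraries, 2 for each organ, from wild-type (WT) C57BL/6 mice that were 5 weeks old. All groups share this strain, genotype and age and differ by organ alone as far as the labels say, with no treatment named. CD8 and B220 positive cells had been removed before sorting on TCR-β and binding of CD1d tetramer, so the libraries hold the sorted iNKT population of an organ and not single subsets. The labels do not say how many mice or which sex went into a library, so p-values measure the spread between these libraries, and they name the molecule nuclear RNA.

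Mitochondria carry their own ribosomes, which make the few proteins that mitochondrial DNA encodes, all of them parts of the respiratory chain or of ATP synthase. The ribosomal RNA of these ribosomes is mitochondrial, but every one of their proteins is encoded in the nucleus, made by cytosolic ribosomes and imported. T cells that divide are known to build up mitochondria and their translation along with DNA replication, and iNKT cells are T cells with a fixed receptor for lipids shown by CD1d that settle in organs.

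Every library was close to the others in cell number (2638 to 2861 cells after filtering, 16532 in all) but not in depth. Total counts of unique molecular identifiers (UMIs, 1 per captured RNA molecule) were 9011285 and 10870838 in liver and 4758138 to 5427699 in the other libraries, with medians of 2880 and 3592 UMIs per cell in liver and 1470 to 1731 elsewhere. The 7 T and iNKT identity genes found in the tables were detected in every library. Haemoglobin and other markers of foreign cell types gave 2946 and 3829 UMIs in liver and 22 to 472 elsewhere, and cells with 2 or more type 17 markers were 1.66% to 9.68% of spleen and liver libraries and 26.0% of each lymph node library. In liver haemoglobin gave most of these UMIs, 15 or 16 of 21 foreign markers were detected in liver and 7 to 10 elsewhere, and their part in the results was not tested. Both lymph node libraries held Y-chromosome RNA and no Xist RNA, and the 4 other libraries the reverse, so in every comparison with lymph node the organ and the sex of the mice cannot be told apart. Sums over a library also cannot separate fewer cells that express a gene from less RNA per cell.

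The 77 genes gave 250797 UMIs in all, 30928 to 61122 per library, which was 0.562% to 0.709% of all UMIs. A cell held 10.9 to 21.8 of these UMIs on average, from 9.38 to 17.1 different genes of the set, and at most 0.227% of the cells of a library held none. Each gene was detected in all 6 libraries, with Mrpl53 lowest at 4 UMIs in a lymph node library, and 9 of the 77 had under 100 UMIs in at least 1 library. In normalised CPM (a gene's UMIs scaled to a common library total with TMM factors, and not divided by gene length), Mrpl33 was highest with a mean of 475 CPM, followed by Mrps21 at 396, Mrpl52 at 335, Mrps14 at 334 and Mrpl23 at 278. These 5 genes held 20.0% of the UMIs of the set.

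The promoters of the set are shown for members on which the results turn, since 43 of the 68 members that matched the RefSeq promoter table (GRCm38.p6) held at least 1 of 3 short motifs within 250 bases before to 50 bases after an annotated start. Both strands were searched for the NRF-1 core (GCGC, any 2 bases, GCGC), the ETS core CCGGAAG and the YY1 core AAGATGGC, and no 2 different motifs overlapped in a window of a member. The ETS core was in 33.8% of the 74 windows of members against 8.86% of all 32851 windows of this length, the NRF-1 core in 18.9% against 6.23% and the YY1 core in 16.2% against 2.75%. The 100 bases before the start in RefSeq of 7 members are given 5′ to 3′ on the gene's strand, with a motif in capitals. Mrpl17 and Mrpl57, lower in liver than in spleen, held the NRF-1 core there. Mrpl51 and Mrpl27, higher in cycling cells and in spleen than in lymph node, held the ETS core. Mrpl18, whose ETS core started 240 bases before its start, Mrpl1 and Mrps6 had none of the 3 in these 100 bases. RefSeq starts can differ from those of the GENCODE gene spans used elsewhere, and the stretches printed for Mrpl18, Mrpl1 and Mrpl51 lie wholly inside the GENCODE gene.
Mrpl17, chr7:105811088-105811187, minus strand: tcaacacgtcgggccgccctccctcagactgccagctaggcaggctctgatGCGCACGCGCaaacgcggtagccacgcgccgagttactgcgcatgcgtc
Mrpl57, chr14:57826139-57826238, plus strand: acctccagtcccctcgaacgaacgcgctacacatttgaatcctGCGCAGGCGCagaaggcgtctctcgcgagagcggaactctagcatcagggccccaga
Mrpl51, chr6:125192100-125192199, plus strand: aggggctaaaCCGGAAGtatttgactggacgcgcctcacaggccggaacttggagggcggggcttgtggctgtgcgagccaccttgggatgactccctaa
Mrpl27, chr11:94653691-94653790, plus strand: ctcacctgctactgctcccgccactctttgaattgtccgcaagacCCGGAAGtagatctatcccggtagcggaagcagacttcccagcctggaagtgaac
Mrpl18, chr17:12916092-12916191, minus strand: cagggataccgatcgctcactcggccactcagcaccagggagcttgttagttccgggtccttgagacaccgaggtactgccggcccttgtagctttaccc
Mrpl1, chr5:96210015-96210114, plus strand: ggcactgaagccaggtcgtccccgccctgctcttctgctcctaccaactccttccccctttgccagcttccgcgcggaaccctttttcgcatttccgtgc
Mrps6, chr16:92058236-92058335, plus strand: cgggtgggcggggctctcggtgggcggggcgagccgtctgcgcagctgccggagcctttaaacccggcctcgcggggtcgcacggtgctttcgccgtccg
A match describes the letters and not a bound site. Of the matched members lower in liver than in spleen, 17 of 25 held a motif, and of those not called in that comparison, 25 of 41.

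The first comparison asked how liver iNKT cells differed from spleen iNKT cells. Of the 77 genes, 28 were lower and 2 higher in liver (edgeR quasi-likelihood test, Benjamini-Hochberg adjusted p below 0.05, n = 2 libraries each), which is 39% of the set against 25.9% of all 10250 genes tested, or 36.4% against 13.1% for genes lower and 2.6% against 12.8% for genes higher in liver. The median log2 fold change of the set was -0.18, against 0.02 over all genes tested, and 58 of the 77 values were negative. Summed over the 77 genes, liver libraries stood at 8182 and 8734 CPM and spleen libraries at 9656 and 10240 CPM, without overlap, a ratio of the means of 0.850.

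Among small-subunit genes, Mrps10, whose bacterial homologue is uS10, measured 39.8 and 41.0 CPM in liver and 68.2 and 61.7 CPM in spleen, a log2 fold change of -0.69 ± 0.14 (SE, adjusted p = 0.00041). Mrps33 stood at 202 and 215 CPM in liver and at 301 and 358 CPM in spleen (-0.66 ± 0.12, adjusted p = 8.1e-05). Mrps14 stood at 237 and 288 CPM in liver and at 383 and 417 CPM in spleen (-0.61 ± 0.12, adjusted p = 0.00027). In all 3 of these genes both liver libraries lay below both spleen libraries, and the gap was larger than the spread within an organ. Mrps11, the homologue of S11, was also lower in liver (-0.50 ± 0.14).

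The 3 mammalian paralogues of bacterial S18, were read side by side. Mrps18c stood at 115 and 128 CPM in liver and at 162 and 217 CPM in spleen, a log2 fold change of -0.64 ± 0.13 (adjusted p = 0.00046). Mrps18a stood at 108 and 105 CPM in liver and at 129 and 162 CPM in spleen (-0.44 ± 0.12, adjusted p = 0.0072). Mrps18b did not pass the test, at 46.5 and 54.2 CPM in liver and 60.4 and 48.4 CPM in spleen (-0.12 ± 0.14, adjusted p = 0.58). Both called paralogues had liver libraries below spleen libraries, while those of Mrps18b overlapped, and the difference between the paralogues was not tested.

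Of the large subunit, Mrpl1, whose bacterial homologue forms the stalk by which spent tRNA leaves, had the largest fall, from 76.3 and 81.5 CPM in spleen to 42.8 and 49.0 CPM in liver (-0.78 ± 0.13, adjusted p = 5.8e-05). Mrpl57 stood at 184 and 168 CPM in liver and at 246 and 295 CPM in spleen (-0.62 ± 0.12, adjusted p = 0.00018). Mrpl17 (-0.53 ± 0.12), Mrpl42 (-0.52 ± 0.12) and Mrps30 (-0.56 ± 0.15), whose protein sits in the large subunit despite its symbol, were also lower in liver. Among the most abundant members, Mrpl33 (-0.31, adjusted p = 0.049) and Mrps21 (-0.32, adjusted p = 0.041) moved less than the genes just named. Mrpl23 at -0.17 and Mrpl52 at 0.04 did not pass the test. Mrps14, also among the most abundant, fell by more than any of these, with a log2 fold change of -0.61 (adjusted p = 0.00027).

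The 2 genes higher in liver both belong to the small subunit. Mrps6, whose bacterial homologue binds beside S18, stood at 49.3 and 51.4 CPM in liver and at 25.5 and 30.0 CPM in spleen (0.86 ± 0.16, adjusted p = 0.00016). Its exons overlap those of Slc5a3, a myo-inositol transporter gene, on the same strand, so counts of the pair may not be fully separable. Mrps23 stood at 133 and 123 CPM in liver and at 106 and 90.8 CPM in spleen (0.38 ± 0.12, adjusted p = 0.021).

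The count rested on the libraries and the tool more than the direction did. It was 11 without liver replicate 1, 10 without spleen replicate 2 and 15 with DESeq2, where 13.1%, 13.2% and 14.1% of all genes were called, while the median of the set lay between -0.29 and -0.10 under every alternative run. Liver cells held more UMIs than spleen cells, and among cells of 1500 to 3000 UMIs alone, a range chosen after seeing the data, 20 genes were lower and 1 higher, where 17.9% of all genes tested were called, 9.16% lower and 8.77% higher. The median of the set there was -0.29 against 0.01 over all genes.

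**Figure D1:**
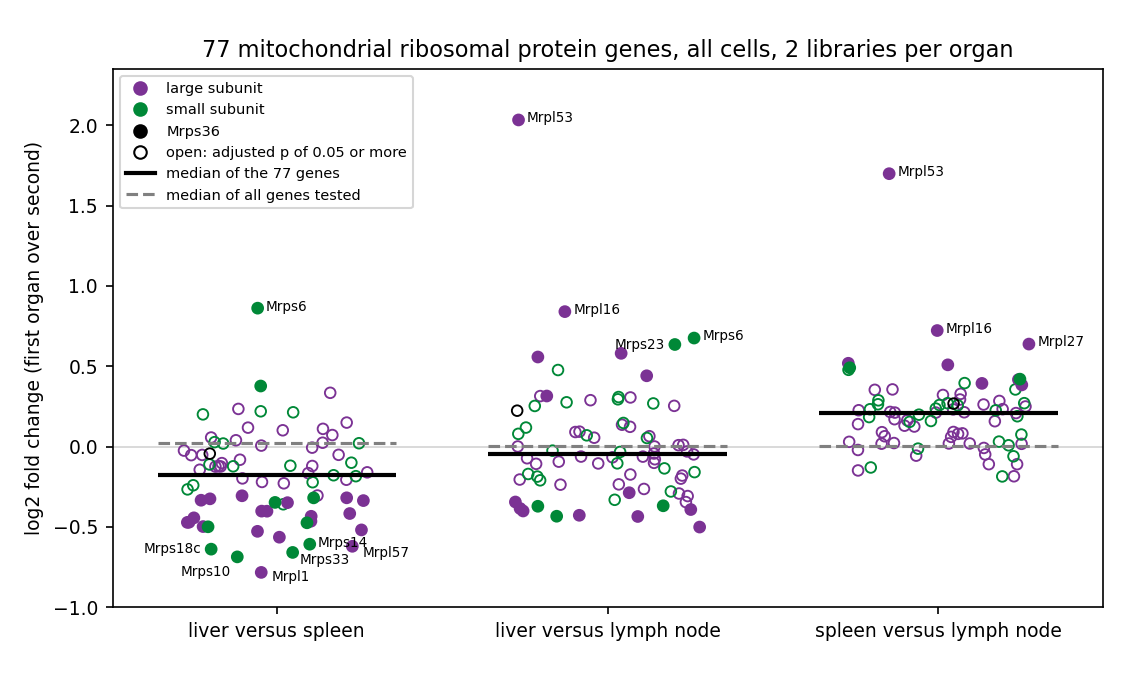
Each point is the log2 fold change of 1 of the 77 genes in all cells of 2 libraries per organ, for liver over spleen, liver over lymph node and spleen over lymph node (filled, adjusted p below 0.05). The set's medians, black lines, lie at -0.18, -0.05 and 0.21, and the medians of all genes tested, dashed, lie near 0.

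Liver against lymph node gave calls in both directions. Of the 77 genes, 8 were higher and 11 lower in liver, which is 24.7% of the set against 37.5% of all genes tested. By direction this was 10.4% against 18% for higher and 14.3% against 19.6% for lower genes. The median of the set was -0.05 against 0.01 over all genes, and the summed level was 8458 ± 390 CPM in liver and 8655 ± 179 CPM in lymph node (SD, n = 2). These CPM leave out cytosolic ribosomal protein RNA, which made up 34.4% and 32.1% of UMIs in liver and 27.3% and 23.4% in lymph node. Per 10000 UMIs with that RNA counted, the set held 56.2 and 59.8 in liver and 63.0 and 65.0 in lymph node, lower in liver without overlap. Without the TMM factors the split was 14 higher and 7 lower, so the balance of the directions depends on the scaling. The split of all genes under that scaling was not set beside it.

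Of the genes higher in liver than in lymph node, 6 belong to the large subunit and 2 to the small, and of those lower, 8 and 3. Mrpl16, whose homologue lies near the peptidyl transferase centre, stood at 55.8 and 61.5 CPM in liver, 51.0 and 57.1 CPM in spleen, and 39.7 and 25.6 CPM in lymph node. The lymph node libraries were the lowest of the 6, and liver exceeded lymph node by 0.84 ± 0.16 on the log2 scale (adjusted p = 0.00013). Mrpl30 stood at 263 and 266 CPM in liver and at 189 and 165 CPM in lymph node (0.58 ± 0.11, adjusted p = 0.00013). Mrpl52, a protein specific to mitochondria, stood at 367 and 391 CPM against 289 and 226 CPM (0.56 ± 0.12, adjusted p = 0.00041). Mrpl51 (0.44 ± 0.12) and Mrpl43 (0.31 ± 0.12) were higher by less, and from the small subunit Mrps6 (0.68 ± 0.16) and Mrps23 (0.64 ± 0.12) were higher in liver than in lymph node as well. Mrpl53 had the largest log2 fold change, 2.03 ± 0.53 (adjusted p = 0.0030), from 60 and 19 UMIs in liver against 6 and 4 UMIs in lymph node. Without liver replicate 1 it was 1.16 (adjusted p = 0.19), the lowest of its alternatives, 2 of which lost the call, and the exons of Mrpl53 overlap those of Ccdc142 on the same strand.

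Lower in liver than in lymph node were Mrpl42 (-0.50 ± 0.12), Mrpl2 (-0.44 ± 0.13), Mrps33 (-0.43 ± 0.12), Mrpl1 (-0.43 ± 0.14), Mrps30 (-0.40 ± 0.15), Mrpl22, Mrpl55, Mrps14, Mrps18c, Mrpl32 and Mrpl33, the last 6 between -0.39 and -0.29. Mrpl42, a protein specific to mitochondria, stood at 146 and 180 CPM in liver and at 215 and 247 CPM in lymph node (adjusted p = 0.0016), and Mrpl2, a homologue at the core of the peptidyl transferase region, at 45.8 and 48.5 CPM in liver and 62.9 and 64.5 CPM in lymph node (adjusted p = 0.010). These comparisons use the same liver libraries as those with spleen and are not independent of them. Without lymph node replicate 2 only 3 genes were called, all higher in liver, and without liver replicate 1 there were 6 higher and 1 lower, where 22.8% and 26.4% of all genes were called.

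Spleen exceeded lymph node in every member that passed the test, 10 of 77 with none lower, which is 13% of the set against 18.2% of all genes tested, with 7.89% of all genes higher and 10.3% lower in spleen. The median was 0.21 against 0.00 over all genes, 65 of the 77 values were positive, and the summed level was 9948 ± 412 CPM in spleen, 1.15 times that of lymph node. Mrpl27 stood at 96.9 and 94.5 CPM in spleen, 76.7 and 73.5 CPM in liver, and 61.5 CPM in each lymph node library, so that the 3 organs did not overlap (spleen over lymph node 0.64 ± 0.13, adjusted p = 0.00044). Mrps24, a small-subunit gene whose exons overlap those of Urgcp on the same strand, stood at 297 CPM in each spleen library and at 213 and 210 CPM in lymph node (0.49 ± 0.11, adjusted p = 0.0017).

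Also higher in spleen were Mrpl16 (0.72 ± 0.17), Mrpl52 (0.52 ± 0.12), Mrpl30 (0.51 ± 0.12), Mrps35 (0.42 ± 0.15), Mrpl51 (0.42 ± 0.12), Mrpl48 (0.39 ± 0.13), Mrpl57 (0.38 ± 0.12) and Mrpl53 (1.70 ± 0.59, from 20 and 13 UMIs against 6 and 4). Without lymph node replicate 2 the count was 2, with 9.63% of all genes called, and Mrpl53 was not among the calls in 5 of its alternatives. With type 17 marked cells left out the count was 10 higher, and the median of the set became 0.15. That count need not be of the same genes and was not set against the share of all genes. For Mrps10, lymph node at 49.1 and 52.5 CPM lay between liver and spleen without passing the test against either (liver over lymph node -0.33 ± 0.14, adjusted p = 0.064, and spleen over lymph node 0.36 ± 0.14, adjusted p = 0.084).

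**Figure D2:**
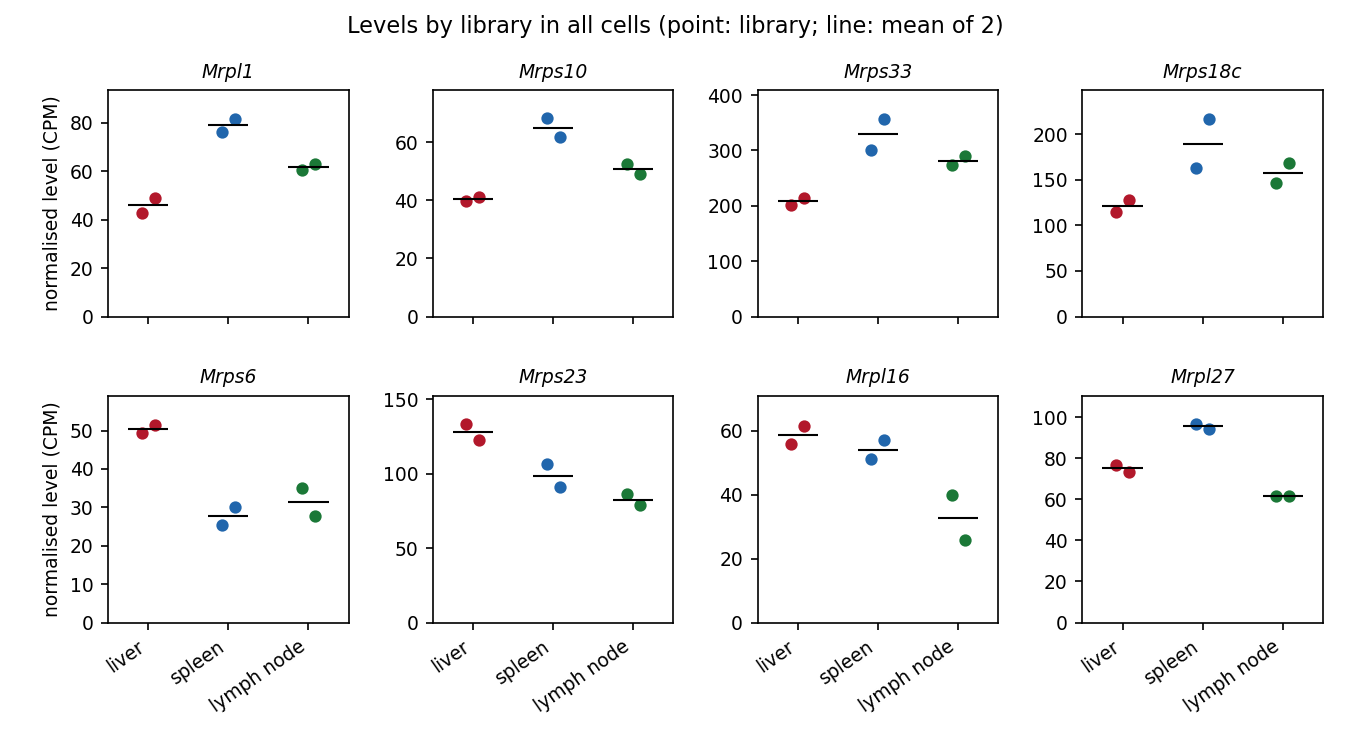
Normalised level in CPM of 8 members in all cells of each library, with 2 points per organ and a line at their mean. Mrpl1, Mrps10, Mrps33 and Mrps18c are lowest in liver and highest in spleen, Mrps6 and Mrps23 are highest in liver, and Mrpl16 and Mrpl27 are lowest in lymph node.

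By the mean of 2 libraries, 51 of the 77 genes were highest in spleen, 18 in liver and 8 in lymph node, and 42 were lowest in liver. This ranking was not tested and not set against that of all genes. Ranges of the 2 libraries did not overlap for 45 members lower and 7 higher in liver than in spleen, 67.5% of the set against 63% of all genes tested. Between liver and lymph node they were 27 lower and 24 higher in liver (66.2% against 70.1%). Between spleen and lymph node they were 42 higher and 2 lower in spleen (57.1% against 57.8%). The set thus lay near the share of all genes each time, and shares of all genes by direction were not set beside these counts. Between liver and spleen, the large subunit had 20 of 50 genes lower and a median of -0.18, and the small subunit 8 of 26 lower and a median of -0.18. Homologues of bacterial proteins had 20 of 46 genes lower (median -0.23) and proteins specific to mitochondria 8 of 30 (median -0.12), a difference that was not tested. The ratio of large-subunit to small-subunit RNA lay between 1.82 and 1.95 in the 6 libraries, with liver at 1.89 and 1.95, spleen at 1.82 and 1.88 and lymph node at 1.86 and 1.87.

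The partners of these genes in mitochondrial gene expression were read beside them. The 13 mRNAs encoded in mitochondrial DNA, which the mitochondrial ribosome translates, summed to 41114 ± 751 CPM in liver, 65317 ± 6944 CPM in spleen and 66971 ± 2972 CPM in lymph node, and 10 of the 13 were lower in liver than in spleen and 9 lower and 1 higher than in lymph node, led by mt-Nd4l (-0.96 ± 0.12) and mt-Atp6 (-0.99 ± 0.14) respectively. The 103 cytosolic ribosomal protein genes, kept out of the table and set against its totals, were highest in liver, at 484610 ± 22637 CPM against 403655 ± 352 CPM in spleen and 343354 ± 52049 CPM in lymph node. Of 6 tested mitoribosome proteins under other symbols, 1 was lower in liver than in spleen (Gadd45gip1, -0.34 ± 0.12). Of 15 translation factors, Tufm, the elongation factor Tu of mitochondria, was higher in liver than in spleen (0.52 ± 0.14) and than in lymph node (0.72 ± 0.15), Tsfm, its exchange factor, was lower in liver than in spleen (-0.49 ± 0.14), and Slirp (0.54 ± 0.13) and Mtif2 (0.44 ± 0.15) were higher in spleen than in lymph node.

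Among 23 assembly factors, 2 were higher and 3 lower in liver than in spleen, and 2 higher and 3 lower than in lymph node, with the pseudouridine synthase Trub2 higher in liver (0.80 ± 0.25 and 1.01 ± 0.25) and Fastkd2 lower (-0.75 ± 0.22 and -0.97 ± 0.22). Among 20 mitochondrial aminoacyl-tRNA synthetases, Lars2 was higher in liver (1.60 ± 0.38 and 0.97 ± 0.35) and Rars2 lower (-0.86 ± 0.20 and -0.59 ± 0.21) in the comparisons with spleen and lymph node. Of 15 tested genes of mitochondrial DNA transcription and maintenance, the coactivator Pprc1 was higher in liver than in spleen (1.08 ± 0.27), and Ssbp1, the single-strand binding protein of mitochondrial DNA, was lower (-0.88 ± 0.12), with 1 gene higher and 3 lower in all.

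The second question was how the set stood in dividing cells. A cell was called cycling when at least 3 of Top2a, Mki67, Nusap1, Birc5 and Ccnb2 were detected in it, which took 324 cells, with 81 and 98 from the liver libraries, 29 and 46 from spleen and 27 and 43 from lymph node, or 1.02% to 3.43% of a library. Cycling cells were large in RNA, with medians of 5070 to 9007 UMIs against 1462 to 3560 in other cells. All 10 genes of an S phase list were higher in them, such as Tyms and Rrm2, which is close to what the marker rule chose and is no separate finding. Per cell, cycling cells held 40.6 to 59.8 UMIs of the set and other cells 10.4 to 20.7. Per 10000 UMIs of the cell they held 64.4 to 81.9 against 55.6 to 70.3, and more in all 6 libraries. Every cell was also thinned to 1000 UMIs, which left out 1075 shallower cells. The means were then 6.31 to 8.37 in cycling and 5.49 to 6.88 in other cells, higher in 6 of 6 libraries. Thinning keeps the expected share of the set in a cell, so these means largely repeat the shares per 10000 UMIs. They are no separate finding and do not match cells by RNA content.

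Just outside the rule, cells with 2 markers held 61.2 and 68.0 UMIs of the set per 10000 in the liver libraries, 82.2 and 88.9 in those of spleen and 78.2 and 70.3 in those of lymph node. Just inside, cells with 3 markers held 68.5 and 73.1 in the liver libraries, 87.1 and 87.6 in those of spleen and 85.2 and 80.0 in those of lymph node. Cells with all 5 markers were lower than those with 3 in each library, at 62.6 and 65.2 (liver libraries), 70.9 and 78.2 (spleen libraries) and 64.7 and 78.6 (lymph node libraries), from 8 to 57 cells per library.

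In CPM with TMM factors, the summed level was higher in cycling than in other cells of each library. It went from 8105 to 8976 and from 8672 to 9125 CPM in liver, from 9321 to 10265 and from 9878 to 11142 CPM in spleen, and from 8708 to 8935 and from 8407 to 10064 CPM in lymph node. The ratios lay between 1.03 and 1.20, with a mean log2 ratio of 0.14 ± 0.08 (SD, n = 6). As a plain share of the table, without TMM factors, the ratios were 1.00 to 1.13, and in lymph node replicate 1 the 2 states were level, at 8652 in cycling and 8653 in other cells. In TMM-scaled CPM, large-subunit genes gave 0.17 ± 0.08 and a rise in 6 of 6 libraries, and small-subunit genes 0.07 ± 0.08 and a rise in 5 of 6. The ratio of large-subunit to small-subunit RNA was 1.94 to 2.09 in cycling and 1.82 to 1.95 in other cells. Over the same cells and on the same scale the mRNAs encoded in mitochondrial DNA went the other way, with a log2 ratio of -0.29 ± 0.05 and 0 of 6 libraries higher, and so did the cytosolic ribosomal protein genes (-0.41 ± 0.06, 0 of 6). The make-up of the cells moved as well, since the 9 type 17 markers (-1.38 ± 0.77) and the 7 T and iNKT identity genes (-0.53 ± 0.13) were lower in cycling cells of all 6 libraries, and its part in the level of the set was not tested. Among the partner lists, the 6 mitoribosome proteins under other symbols had a median of 0.05, 2 of 13 translation factors (Mtif3 and Mtif2), 1 of 22 assembly factors (Nsun4) and 7 of 13 mitochondrially encoded mRNAs were lower in cycling cells. Of 15 genes of mitochondrial DNA transcription and maintenance, Tfam, which packages and transcribes mitochondrial DNA, was higher (0.47 ± 0.15), and Ppargc1b (-1.37 ± 0.52) and Myc (-0.64 ± 0.19) were lower.

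**Figure D3:**
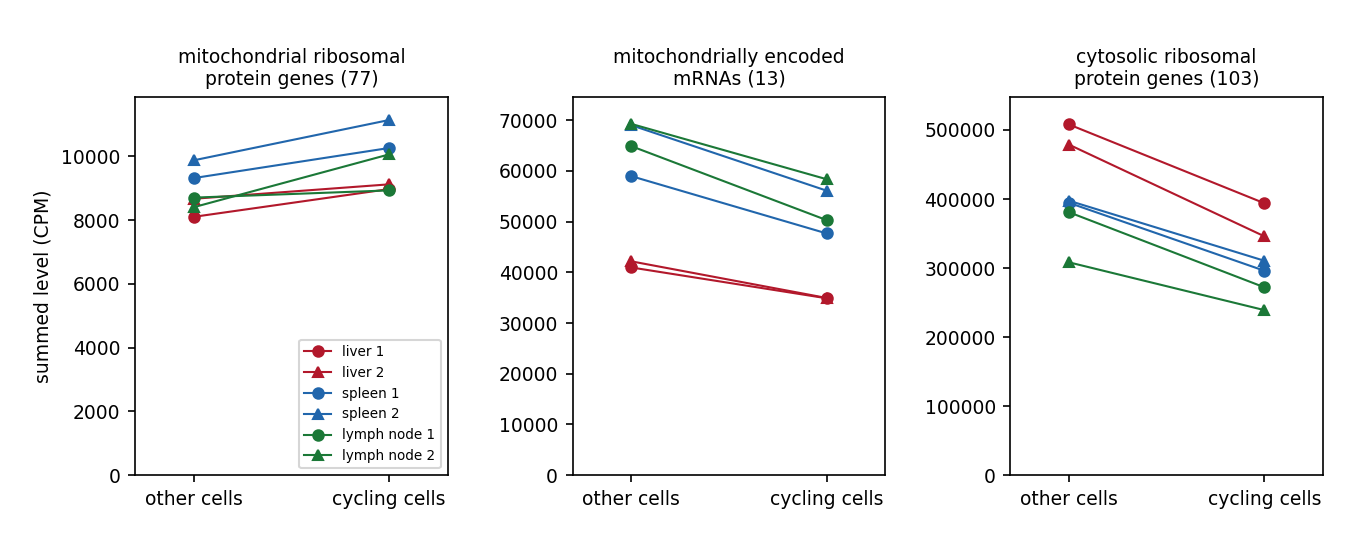
Summed level in CPM with TMM factors for 3 groups of genes in other and in cycling cells, with a line for each of the 6 libraries. The 77 genes rise in each library, by 1.03 to 1.20 times, while the mRNAs encoded in mitochondrial DNA and the cytosolic ribosomal protein genes fall in each.

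Gene by gene, 76 members could be tested, and 17 were higher and 3 lower in cycling cells (edgeR quasi-likelihood test with the library as a block, Benjamini-Hochberg adjusted p below 0.05, 6 libraries). That is 26.3% of the set against 31% of all 8941 genes tested, with 22.4% against 16% for higher and 3.95% against 15% for lower genes. The median of the set was 0.09 against -0.08 over all genes. In 13 members the level was higher in cycling cells of all 6 libraries, against 13.3% of all genes tested.

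Mrpl18, whose bacterial homologue binds 5S ribosomal RNA, had the largest rise of the members tested. It measured 369 and 326 CPM in cycling liver cells, 469 and 501 CPM in cycling spleen cells and 448 and 438 CPM in cycling lymph node cells, against 197 and 210, 224 and 241, and 203 and 188 CPM in other cells of the same organs. Its cycling and other libraries did not overlap, and the log2 fold change was 0.97 ± 0.09 (adjusted p = 1.2e-20). The gene lies at chr17:12911349-12916345 on the minus strand (GENCODE, GRCm38) and its exons overlap those of Tcp1 on the opposite strand.

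Mrpl51, specific to mitochondria, rose from 101 to 151 CPM in other cells to 202 to 265 CPM in cycling cells, again without overlap (0.78 ± 0.11, adjusted p = 1.4e-10). Mrpl13 stood at 86.5 to 122 CPM in cycling and 53.9 to 80.0 CPM in other cells (0.63 ± 0.14, adjusted p = 0.00010), and Mrpl28 at 127 to 190 CPM against 93.6 to 122 CPM (0.53 ± 0.12, adjusted p = 0.00017). Both were higher in cycling cells of all 6 libraries. Mrpl49 (0.61 ± 0.16), Mrpl27 (0.57 ± 0.14) and Mrpl42 (0.47 ± 0.10) were called but higher in 5 of 6, with lymph node replicate 1 the exception in each. Mrpl17 (0.49 ± 0.13) rose in 6 of 6, and the small subunit had Mrps10 (0.47 ± 0.17), Mrps11 (0.43 ± 0.16) and Mrps18c (0.43 ± 0.11) among the genes that rose. Of 22 alternatives, the call held in 7 for Mrps10, 9 for Mrps11 and 18 for Mrps18c.

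Of the paralogues of bacterial S18, only Mrps18c passed the test here, with Mrps18a at 0.02 ± 0.13 and Mrps18b at -0.24 ± 0.19 (adjusted p = 0.92 and 0.37). Lower in cycling cells were 3 members. Mrps5, from the entry side of the small subunit, stood at 57.1 to 129 CPM in cycling and 124 to 151 CPM in other cells and was lower in 6 of 6 libraries (-0.44 ± 0.13, adjusted p = 0.0049). Mrpl52 stood at 147 to 313 CPM against 224 to 399 CPM (-0.39 ± 0.10, adjusted p = 0.00054) and Mrpl24 at 65.2 to 165 CPM against 145 to 172 CPM (-0.33 ± 0.12, adjusted p = 0.028), each lower in 5 of 6. The abundant Mrpl33, Mrps21, Mrps14 and Mrpl23 lay between -0.21 and 0.18 and did not pass.

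The level of the set also moved with the RNA content of a cell among cells that were not cycling. When the other cells of a library were ranked by UMI count and cut into 4 bins of equal number, the summed level rose from bin to bin in all 6 libraries. The top bin stood at 1.15 to 1.20 times the bottom bin, from 7810 to 9162 and from 8138 to 9491 CPM of the table, here without TMM, in liver, from 8770 to 10097 and from 8907 to 10557 in spleen, and from 7795 to 9336 and from 7717 to 9028 in lymph node. Per 10000 UMIs of the cell the top bin stood at 1.08 to 1.14 times the bottom bin, and the level rose over all 4 bins in 3 libraries. Cycling cells were therefore also set against other cells of like size, taking in each library cells of both kinds between the 25th and 75th percentile of the UMI count of its cycling cells.

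What that comparison showed depended on the scale. As a share of the table, cycling cells stood below other cells of matched UMI count in each library, at 9039 against 9461 and 8725 against 9992 CPM in liver, 9346 against 10867 and 10176 against 11785 in spleen, and 7942 against 10321 and 9336 against 10027 in lymph node. The table leaves out cytosolic ribosomal protein RNA, which made up 18.4% to 27.2% of the UMIs of these cycling cells and 24.8% to 36.2% of those of the other cells. Per 10000 UMIs of the cell, with that RNA counted, cycling cells were higher in 2 of 6 libraries, liver replicate 1 (65.8 against 60.3) and lymph node replicate 2 (76.2 against 75.4), and lower in 4, with ratios of 0.853 to 1.09. The match left 13 to 48 cycling and 26 to 145 other cells per library, and the cycling cells kept the higher median UMI count in each. Of 68 members tested, 1 was higher and 6 were lower, where 19.2% of all genes tested were called, 11.1% higher and 8.01% lower. The median of the set was -0.16 against -0.04 over all genes. Mrpl18 remained higher (0.56, adjusted p = 0.00027), Mrpl52 (-0.36, adjusted p = 0.040) and Mrpl24 (-0.59, adjusted p = 0.015) remained lower, and Mrpl51 at 0.34 no longer passed the test (adjusted p = 0.13).

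A further fit used cells thinned to 1000 UMIs, which does not match them by RNA content. In it 1 of 74 members was higher and 3 were lower, with 12.8% of all genes tested called, 4.74% higher and 8.03% lower. Mrpl18 was again the gene that rose (0.60, adjusted p = 0.025), and Mrpl52 was again lower (-0.79, adjusted p = 0.0035). The median of the set was -0.11, but it was -0.32 over all genes, so relative to other genes the set lay higher in that comparison and lower in the matched one. Of the 17 genes that rose among all cells, Mrpl18 alone was called higher in either of these comparisons.

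**Figure D4:**
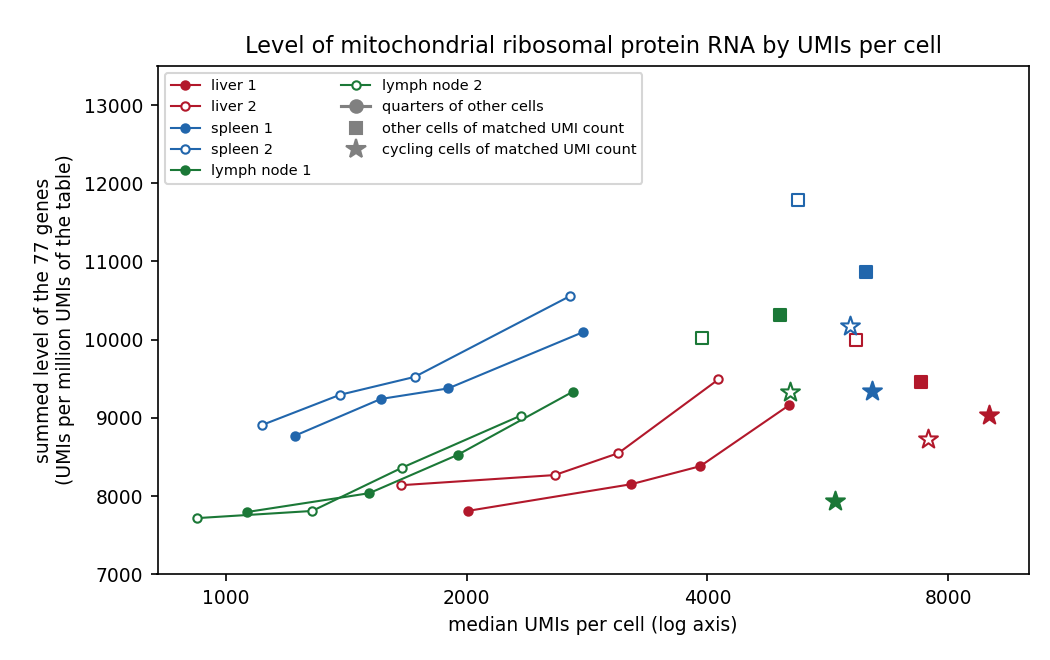
Summed level of the 77 genes, in CPM of the table without TMM, against median UMIs per cell on a log axis, by library. Circles are the 4 bins of other cells, and of cells of matched UMI count squares are other and stars cycling cells, with each star below the square of its library and the vertical axis starting above 0.

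**Figure D5:**
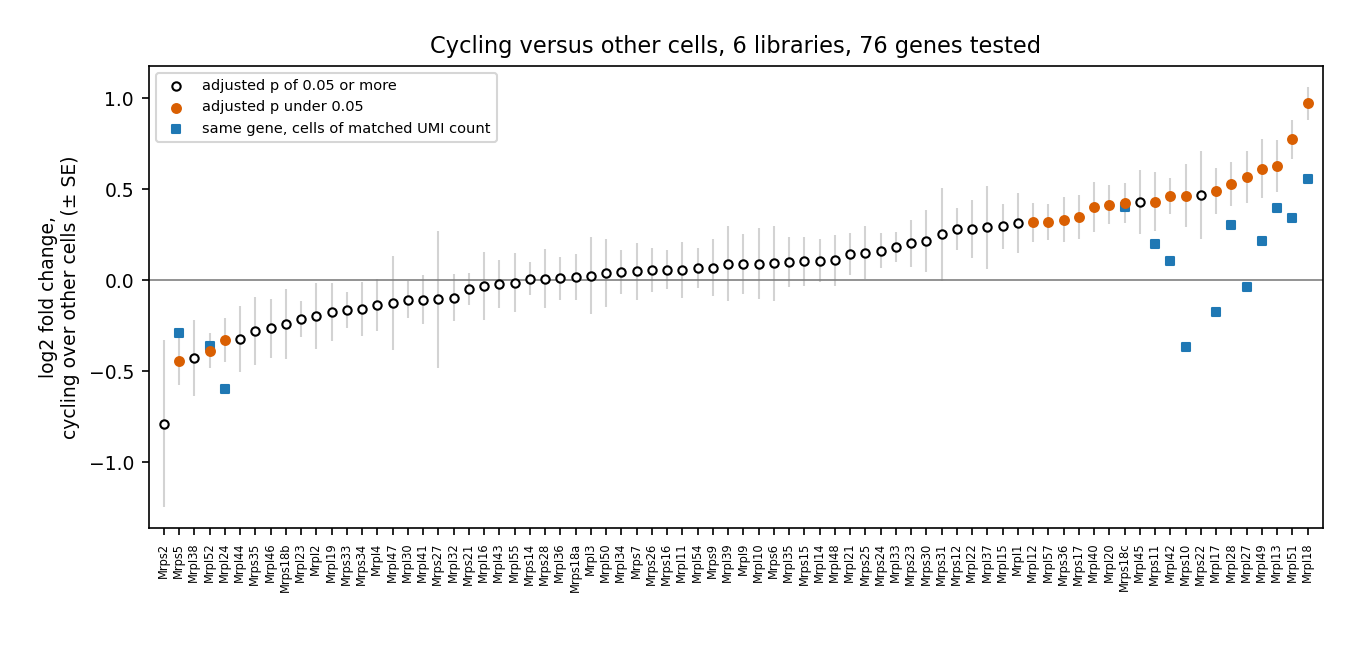
Log2 fold change of cycling over other cells with its SE for the 76 genes tested, ordered by size and coloured where the adjusted p is below 0.05. Blue squares repeat the named called genes in cells of matched UMI count. Mrpl18 lies at 0.56 there, against 0.97 among all cells, and Mrpl17, Mrpl27 and Mrps10 fall below 0.

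Within cycling cells, the organs were compared over 63 members with enough counts. Liver was lower than spleen in 5 genes and higher in none, 7.94% of those tested against 10.3% of all 3796 genes tested, of which 5.06% were lower and 5.27% higher in liver. Mrps28 stood at 49.2 and 59.8 CPM in liver and at 161 and 102 CPM in spleen (-1.22 ± 0.35, adjusted p = 0.017), and Mrpl1 at 53.3 and 55.7 CPM against 103 and 123 CPM (-1.06 ± 0.35, adjusted p = 0.040). Mrps34 (-0.97 ± 0.31), Mrps33 (-0.76 ± 0.23) and Mrpl42 (-0.63 ± 0.21) were also lower in liver. Between liver and lymph node 1 gene passed, Mrpl52, at 346 and 322 CPM in liver and 160 and 242 CPM in lymph node (0.69 ± 0.24, adjusted p = 0.047), 1.59% of those tested against 11.8% of all genes, of which 5.87% were higher and 5.95% lower in liver. Between spleen and lymph node none passed by edgeR or by DESeq2, with 3 at an unadjusted p below 0.05, and 1.55% of all genes were called, 0.553% higher and 1% lower in spleen. The medians of the set were -0.20, -0.03 and 0.18.

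These counts are thin, with 1096 to 4844 UMIs of the set in the cycling cells of a library. The calls under alternatives that follow were not set against the share of all genes called in the same fits. DESeq2 called 0 of the 5 and 0 of the 1, and leaving out liver replicate 1, liver replicate 2, spleen replicate 1 or spleen replicate 2 left 2, 1, 2 and 0 genes lower in liver than in spleen. In liver replicate 2 the cycling cells also held 1169 CPM from the list of foreign markers, nearly all of them haemoglobin, against 31.9 in liver replicate 1 and at most 8.88 elsewhere, and its part in these values was not tested. The test of whether the cycling effect itself differed between organs called 1 of 76 members, Mrps34, against 1.35% of all genes, with 4 at an unadjusted p below 0.05.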

How the data were processed

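The authors made 10x Genomics 3′ v2 libraries. Per the submitters' processing notes, Cell Ranger 3.1.0 and Seurat were used with genome build mm10, and the annotation version is not given in the sources used here. The deposited matrices hold raw UMI counts that the authors had not normalised. The deposited gene and barcode lists hold other values, identifiers and symbols. Members and gene lists were chosen with earlier results of these data known.

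Of 16587 barcodes, 55 were dropped for under 300 or over 4000 genes or a mitochondrial share above 15%. Between libraries, 148 barcodes recurred, at most 20 in a pair. No doublet caller was run. Cytosolic ribosomal protein, ribosomal RNA and haemoglobin genes (111 genes, 23.4% to 34.4% of the UMIs of a library) were kept out of the table. Counts were summed per library, and per library and cell state, and tested with edgeR 4.0.16 (R 4.3.3: TMM, filterByExpr, quasi-likelihood, all 3 organs in 1 fit, library as block between states), with adjusted p over all genes tested and calls at 0.05. With 2 libraries against 2, an exact permutation test cannot go below 0.333, so only these fits give p-values. The scripts were tested on simulated data. Of 1.5-fold changes, 31% were recovered for liver against spleen in all cells, 15% for these organs in cycling cells and 40% between states. For 2-fold changes this was 81%, 43% and 67%, and 4.27%, 6.45% and 5.31% of calls were false. A gene that did not pass is therefore not shown to be unchanged. Sums, UMI bins and matched cells were computed in Python 3.11.15 as listed with the results, the sums of matched cells and UMI bins per 10000 UMIs being added after the data were seen.

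The text names, per comparison, up to 10 called members in each direction with the largest fold change, the 5 most abundant members, Mrps18a, Mrps18b and Mrps18c, and up to 3 called genes of each other list. Genes that overlap on the same strand were found in GENCODE vM21 (GRCm38), for 4 members, and on the opposite strand for 24. Whether counting used strand is not given in the sources used here. The result of 1 partner list in cycling cells is not reported here. Alternatives were scaling, DESeq2 1.42.0, filters on genes and cells, thinning, matching, each library left out and a replicate block.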

Additional observations from a re-analysis of the deposited data

Results flagged for a closer look

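The cycling effect of Mrps34, a small-subunit gene specific to mitochondria, differed between organs (edgeR quasi-likelihood F test of the interaction, adjusted p = 0.0382). Its levels in cycling and other cells were 81.5 and 111 CPM in liver replicate 1, 60.3 and 118 CPM in liver replicate 2, 136 and 118 CPM in spleen replicate 1, 151 and 110 CPM in spleen replicate 2, 179 and 109 CPM in lymph node replicate 1, and 86.5 and 102 CPM in lymph node replicate 2. Cycling cells were thus lower in both liver libraries, higher in both spleen libraries and split in lymph node. The call was lost without either liver library, without either spleen library, without lymph node replicate 1, with DESeq2, after thinning and with 2 or more cycling markers. The exons of Mrps34 overlap those of Nme3 on the same strand.

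Of 21 sets of 6 library values of cycling over other cells checked for a value far from the rest (log2 ratio with 5 CPM added to each level), 2 had one, where chance alone gives about 1 in 20. Mrps11 was lower in cycling cells of spleen replicate 2 alone, at -0.101, against 0.38 to 0.64 in the other libraries. Mrpl17 rose most in lymph node replicate 1, at 0.71, against 0.40 to 0.51 in the others.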

How the results depend on the processing

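Counts of called members moved by over 1.5 times as follows, with those under the replicate block given further on. A count given here without a share of all genes does not show whether the set moved more than other genes. Liver against spleen fell from 30 to 15 with DESeq2 and 17 with thinned cells, and lay between 10 and 25 with a library left out. Liver against lymph node fell from 19 to 11 with DESeq2 and lay between 3 and 20 with a library left out. Spleen against lymph node fell from 10 to 6 with DESeq2 and lay between 2 and 11 with a library left out. Cycling against other cells fell from 20 to 13 with DESeq2, 8 in spleen alone and 3 in lymph node alone. The count fell to 4 with thinned cells and 7 with cells of matched UMI count. In these 12.8% and 19.2% of all genes were called, against 31% in the main fit. In cycling cells, liver against spleen fell from 5 to 0 with DESeq2, 3 without a filter on low counts and 1 with thinned cells, where 8 members could be tested, and lay between 0 and 6 with a library left out, while the 1 gene between liver and lymph node became 0 with DESeq2, without the filter and with thinned cells, and 0 or 1, then lower in liver, with a library left out. The interaction gave 0 in place of 1 with 2 or more cycling markers, thinned cells and DESeq2, and 0 or 1 with a library left out.

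Directions reversed between cycling and other cells for Mrpl28 (-0.15) and Mrpl17 (-0.075) in thinned cells and for Mrpl27 (-0.036), Mrpl17 (-0.17) and Mrps10 (-0.37) in matched cells. The median of the members there became -0.11 in thinned cells, -0.16 in matched cells and -0.0076 without the filter on low counts, and that of spleen against lymph node in cycling cells became -0.027 in thinned cells. With lymph node replicate 2 left out the median between cycling and other cells was 0.0045. The median between liver and lymph node became 0.0056 without the TMM factors, 0.02 without liver replicate 1 and -0.13 among cells of 1500 to 3000 UMIs. Matching and thinning left fewer cells or UMIs, and the cause of the changes was not tested.

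Replicate numbers were not taken to pair libraries, since deviations of libraries with the same number correlated at 0.075 to 0.098 over 10250 genes. With the replicate block, 30, 27 and 16 members were called in the 3 organ comparisons (30.0%, 40.7% and 20.9% of all genes), spleen against lymph node rising from 10 to 16. It gave 22 between cycling and other cells (30.9% of all genes), and 3, 0 and 0 between organs in cycling cells (8.98%, 10.8% and 1.34%), in place of 5, 1 and 0.

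Of the 14 named members called between cycling and other cells, 1, Mrpl18, passed under all 22 alternatives. Of those called in the organ comparisons, 8 of 15 (liver and spleen), 3 of 19 (liver and lymph node) and 2 of 10 (spleen and lymph node) passed under every alternative, and in cycling cells 0 of 5 and 0 of 1. Depth limits the lowest members, of which 9 had under 100 UMIs in a library.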
